A study of Mus musculus with 32 samples.

Results

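The 32 genes described here mark monocytes, macrophages and dendritic cells or serve the receptors these cells carry, and they were followed across 8 groups of mouse fetal liver progenitor libraries. They were chosen by symbol, and each of the 32 was found among the 55487 gene identifiers measured. RNA came from hematopoietic progenitors of fetal liver immortalised with ER-HOXB8, a HOXB8 protein held active by estradiol that keeps myeloid progenitors dividing. The line hi-77+/+ (genotype Gata2 -77+/+) has both copies of the upstream Gata2 enhancer named for that position, and the line hi-77-/- (Gata2 -77-/-) has none. They are called wild-type and mutant below. For 4 h each line was given vehicle, interferon gamma (IFNg) at 1 ng/ml, the synthetic TLR1 and TLR2 agonist Pam3CSK4 at 100 ng/ml, or both agonists. All 8 groups carried ER-HOXB8 and were grown with estradiol, 2-mercaptoethanol, G418 and medium conditioned with stem cell factor, and each group had 4 libraries. Each genotype was a single line, and the labels do not say that the 4 libraries of a group were separate cultures. P-values therefore measure only the spread between these libraries, which may be technical, and the genotype cannot be told apart from other differences between the lines.

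Mononuclear phagocytes arise from progenitors under the growth factors CSF1 and GM-CSF, whose receptors are encoded by Csf1r, Csf2ra and Csf2rb. The activating Fc receptors bind antibody-coated particles and signal through Fcer1g, an adaptor with an ITAM motif that recruits the kinase SYK. Tyrobp is a second ITAM adaptor, used by TREM and other activating receptors, while Fcgr2b, Cd300a, Clec12a and Sirpa carry inhibitory motifs that recruit phosphatases. IFNg is a classic activator of macrophages, and TLR2 acts through MYD88 and NF-kB. GATA2 is a transcription factor of stem and progenitor cells and of the mast cell lineage.

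The libraries held 44.18 to 71.42 M expected counts each. Values are CPM, in which a count is divided by the TMM-scaled library total and multiplied to a common size, and are given as mean ± SD with n = 4 where not listed by library. Gata2, the gene whose enhancer is missing, stood at 43.4 ± 8.27 CPM in wild-type and 7.52 ± 0.679 CPM in mutant vehicle libraries, which matches the labels. Mitochondrial and small structural RNAs took 19.4 to 28.8% of counts in wild-type vehicle libraries but 12.8 to 17.7% in the treated wild-type groups, and 15.5 to 30.3% in the mutant groups. This share moves with wild-type treatment, so each wild-type response is also given from a model that holds the share as a covariate (the share-adjusted fit) where that ends a call. No treated wild-type library reached the share of a vehicle one, so this fit separates share from treatment only weakly there. Fits without wild-type vehicle libraries 1 and 4, which had that group's highest shares (25.8 and 28.8%), leave fewer libraries to compare. A call lost in either setting does not show that a change is absent. Markers of other cell types also differed between the lines: the summed level of 6 mast cell and basophil genes was 329 to 383 CPM in wild-type and 63.9 to 73.1 CPM in mutant vehicle libraries, with Fcer1a at 0 in both. The sum of 8 early B lymphoid genes was 37.6 to 43.7 and 267 to 278 CPM. That of 7 erythroid genes was 97.1 to 112 and 5.65 to 6.41 CPM. That of 8 neutrophil genes was 86.1 to 121 and 55.6 to 61.8 CPM. In treated wild-type cells the erythroid sum was 63 to 75.1 CPM with IFNg, 73 to 79.2 CPM with Pam3CSK4 and 62.9 to 68.5 CPM with both agonists. The part of these marker sums in the differences reported below was not tested. In bulk RNA fewer cells of a type and less RNA per cell cannot be told apart.

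The label of the gene set was checked against defining markers, some of which are members. Of 7 monocyte markers all 7 had counts, and they summed to 269 to 312 CPM in wild-type and 734 to 815 CPM in mutant vehicle libraries. The member F13a1 made up a large part of this rise, with means of 58.3 and 314 CPM. Of 9 macrophage markers 3 had counts in wild-type and 4 in mutant vehicle libraries, with sums of 21.2 to 25.1 and 10.9 to 11.4 CPM. The lower mutant sum followed Adgre1 (means of 20.9 and 6.01 CPM), while Cd68 on the same list was higher in mutant cells (2.56 and 5.06 CPM). Mertk, C1qa, C1qb, C1qc and Timd4 were at 0 in both vehicle groups, and Vcam1 in the wild-type one. Macrophage markers were thus mostly without counts, while each monocyte marker was detected. Of 8 conventional dendritic cell markers 6 and 7 had counts, with sums of 195 to 213 and 370 to 382 CPM, and Cd209a was at 0 in every group. The members Itgax, Zbtb46 and Batf3 averaged 1.41, 1.71 and 0.0351 CPM in wild-type and 0.748, 1.69 and 0.00803 CPM in mutant vehicle libraries. The higher mutant sum thus came from other markers on this list, which include Flt3, also counted as a progenitor marker. Of 7 plasmacytoid dendritic cell markers 4 and 5 had counts, with sums of 106 to 124 and 115 to 119 CPM. Klk1 was at 0 in every group, and Siglech in both vehicle groups. The 8 progenitor markers all had counts, and summed to 5380 to 5490 CPM in wild-type and 5450 to 5560 CPM in mutant vehicle libraries.

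Levels of different genes were compared per length, as CPM per kilobase of effective transcript length. In wild-type vehicle libraries the ITAM adaptor gene Tyrobp led with 222 ± 27.1 CPM per kilobase, followed by Emb (142 ± 5.66), Fcer1g (141 ± 6.30) and Fcgr3 (138 ± 8.81), whose ranges overlapped one another. Fcgr2b, Csf2rb, F13a1 and Sirpa stood between 15.2 and 32.5 CPM per kilobase. The growth factor receptor gene Csf1r was at 0.0365 ± 0.0230 CPM per kilobase, the lowest of the members with any counts. In mutant vehicle libraries Tyrobp again led (361 ± 18.1), now followed by Fcer1g (189 ± 6.15), Emb (133 ± 4.70) and F13a1 (85.5 ± 3.67), with no overlap between neighbours in that order. Fcgr3 stood at 28.2 ± 1.19 and Csf1r at 0.295 ± 0.0464 CPM per kilobase. The adaptors were thus among the most abundant members per length in both lines.

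Of the 32 members, 27 had enough counts to be tested. The other 5 were Siglech and Ms4a4c, surface proteins of plasmacytoid dendritic cells and of the MS4A family, and the transcription factor genes Batf3, Klf4 and Maf. They are given as counts summed over 4 libraries, and the bounds and intervals cover counting error only. Klf4, a factor of monocyte differentiation, had 0 counts in wild-type and 35 in mutant vehicle libraries, at least 10.8-fold higher per library total against a floor of 3 counts over the group. With IFNg it had 1 and 20 counts, a ratio of 21.7 (95% counting interval 3.47 to 900). Ms4a4c had 0 counts in each wild-type group, and in mutant cells 1 with vehicle, 15 with IFNg and 28 with both agonists, the last at least 9.64-fold higher than in wild-type. Batf3, an AP-1 factor of conventional dendritic cells, had 7 counts with vehicle and 19 with both agonists in wild-type cells, and 2 and 39 in mutant cells. Siglech had at most 5 counts and Maf at most 5 in any group.

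**Figure D1:**
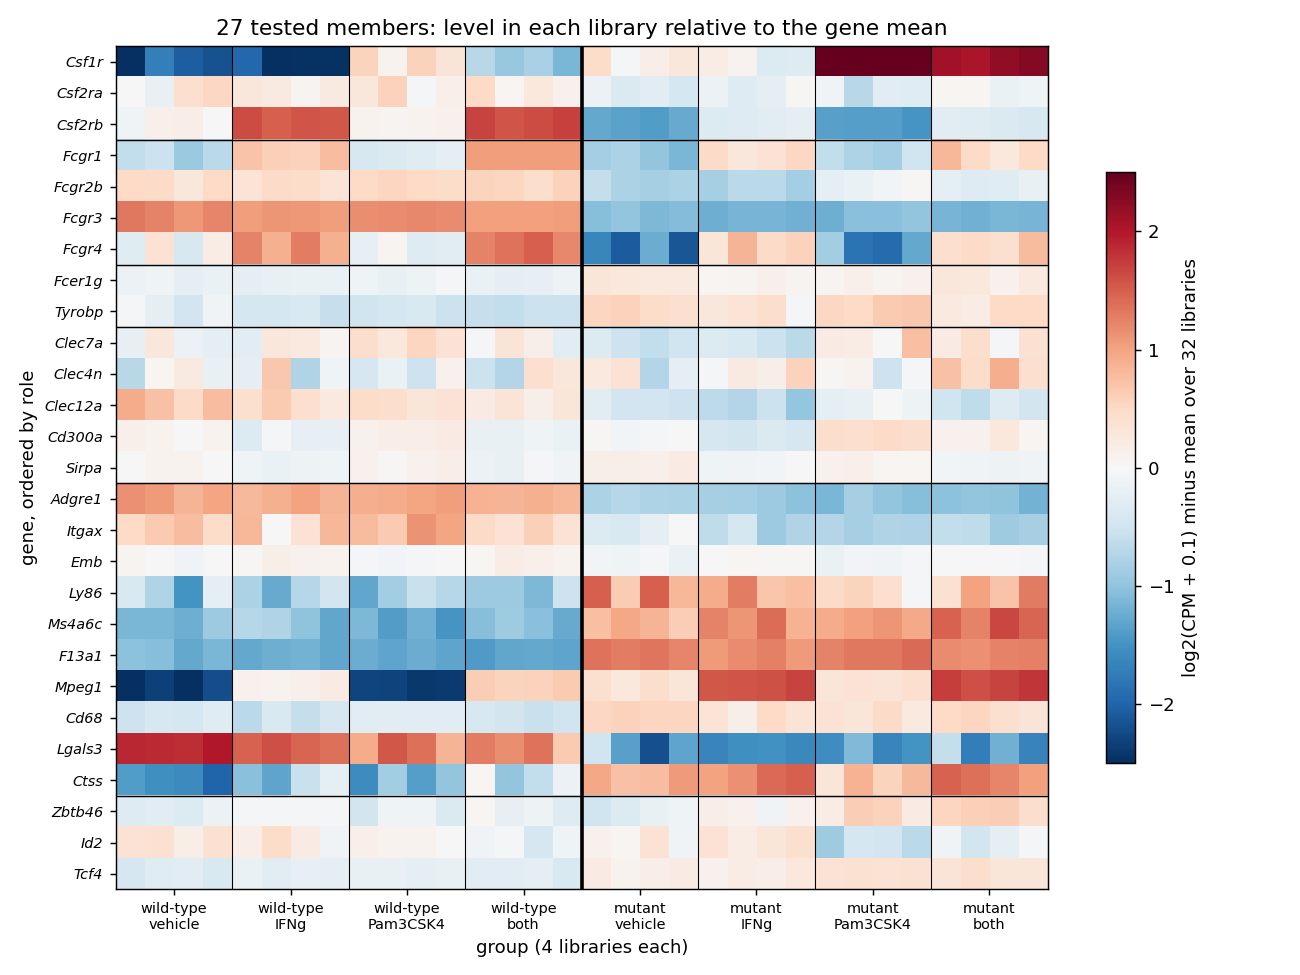
Level of the 27 tested members in each of the 32 libraries, as log2(CPM + 0.1) minus the gene's mean over all libraries; rows are genes ordered by role, columns are libraries in groups of 4, and colours are limited to the range of the bar. The Mpeg1, Csf2rb, Fcgr1 and Fcgr4 rows change with IFNg in both lines, Csf1r changes with Pam3CSK4, and rows such as Fcgr3 and F13a1 differ mainly between the wild-type libraries on the left and the mutant libraries on the right.

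The first comparison set mutant against wild-type cells with vehicle. F13a1, Ly86, Ms4a6c and Csf1r were higher in mutant cells, as were the adaptors Tyrobp and Fcer1g, while 4 Fc receptor genes, Csf2rb, Lgals3 and Adgre1 were lower. In edgeR's quasi-likelihood test (Benjamini-Hochberg adjusted p under 0.05 over 14869 genes) 11 of the 27 tested members were higher and 12 lower, beside 24.4% and 29.3% of all tested genes. The median log2 fold change was -0.09 for the members and -0.01 for all genes. The members thus differed in both directions.

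Among the growth factor receptors, Csf1r stood at 0.0197, 0.270, 0.192 and 0.167 CPM in the 4 wild-type vehicle libraries and at 1.56, 1.07, 1.26 and 1.38 CPM in the mutant ones. The groups did not overlap, and the log2 fold change was 2.97 ± 0.26 (SE; edgeR adjusted p = 2.8e-12). Csf2rb (chromosome 15, 78325752 to 78353847), the chain shared by the receptors for GM-CSF, interleukin 3 and interleukin 5, went the other way. It read 86.8, 101.5, 105.1 and 92.5 CPM in wild-type and 38.5, 36.9, 35.2 and 39.0 CPM in mutant libraries (-1.37 ± 0.05, edgeR adjusted p = 1e-23). Csf2ra, the alpha chain specific to GM-CSF, was lower by less (log2 -0.55 ± 0.16) and its groups overlapped. Mast cells also express Csf2rb, so the lower mast cell marker sum in mutant cells stands beside this value, and its part in the difference was not tested. Csf2rb has a close paralog, Csf2rb2, and reads they share were divided by a model, so the 2 are not fully separated.

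The IgG receptor genes of chromosome 1 lie together (mm10, + and - strands): Fcgr2b at 170958617 to 170976547, Fcgr4 at 171018920 to 171029761 and Fcgr3 at 171051174 to 171064935. Fcgr3, the low-affinity activating receptor, read 164.7, 154.6, 140.3 and 153.1 CPM in wild-type libraries and 31.6, 33.1, 30.0 and 30.8 CPM in mutant ones (log2 -2.29 ± 0.04, edgeR adjusted p = 1e-31). The groups lay far apart. Fcgr2b, the inhibitory receptor, read 50.6, 50.3, 43.8 and 50.9 against 23.9, 20.9, 20.3 and 20.8 CPM (-1.19 ± 0.06). Fcgr4, an activating receptor of monocytes and neutrophils, read 0.315, 0.556, 0.288 and 0.477 against 0.0649, 0.0214, 0.117 and 0.0161 CPM (-2.81 ± 0.39), with 1 to 7 counts in each mutant library. The 3 neighbouring genes were thus lower in every mutant library than in any wild-type one. These receptors are similar in sequence, so reads may have been divided among them. Fcgr1, the high-affinity receptor on chromosome 3, differed by only -0.27 ± 0.12 (edgeR adjusted p = 0.045), with overlapping groups. Its call ended when wild-type library 1, 2 or 4 or mutant library 3 or 4 was left out (-0.25, -0.21, -0.27, -0.25 and -0.20), and with RLE size factors, DESeq2, no filter on low counts, only these 2 groups in the fit or the share-adjusted fit (-0.24 to -0.27). It also ended without wild-type libraries 1 and 4 together (-0.20).

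The adaptor genes were higher in mutant cells. Fcer1g, the gamma chain of activating Fc receptors, stood at 62.3 ± 2.59 CPM in wild-type and 83.7 ± 1.80 CPM in mutant libraries (log2 0.43 ± 0.04, edgeR adjusted p = 6.1e-12). Tyrobp stood at 73.9 ± 9.84 and 120 ± 5.63 CPM (0.70 ± 0.09). So the adaptor that activating Fc receptors need was higher where Fcgr3 and Fcgr4 were lower. Fcer1g also serves the IgE receptor of mast cells, whose marker sum was lower in mutant cells.

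Among lectins and inhibitory receptors, Clec12a, an inhibitory lectin of myeloid cells, stood at 23.5 ± 2.88 and 10.3 ± 0.800 CPM (log2 -1.18 ± 0.09, edgeR adjusted p = 4.1e-13). Sirpa, the receptor for CD47, was higher by 0.11 ± 0.04, and that call ended without wild-type libraries 1 and 4 together (0.10). Cd300a (24.1 ± 0.909 and 22.5 ± 0.746 CPM) and Clec4n, the gene of dectin-2 (0.0801 and 0.0901 CPM on average), did not pass. Clec7a, the gene of the beta-glucan receptor dectin-1, was lower by log2 -0.51 ± 0.19 (edgeR adjusted p = 0.025). That call ended without wild-type library 2 (-0.36) or mutant library 3 (-0.46), and with no filter on low counts or only these 2 groups in the fit (-0.51 and -0.48). In this annotation Clec7a is a polymorphic pseudogene.

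F13a1, Mpeg1, Ms4a6c, Ly86, Ctss and Cd68 were higher in each mutant library than in any wild-type one. F13a1 (chromosome 13, 36867178 to 37050244), the A subunit of coagulation factor XIII, read 62.0, 60.8, 52.6 and 57.8 CPM in wild-type and 324.6, 310.3, 323.2 and 296.4 CPM in mutant libraries (log2 2.43 ± 0.05, edgeR adjusted p = 3.4e-30). Mpeg1, which encodes the pore-forming protein perforin-2, read 3.41, 3.88, 3.48 and 4.19 against 26.2, 23.8, 27.1 and 24.7 CPM (2.77 ± 0.06). Ms4a6c read 1.06, 1.06, 0.994 and 1.26 against 4.19, 4.87, 4.53 and 3.79 CPM (1.99 ± 0.13). Both genes lie on chromosome 19. Ly86, the partner of the TLR4-like receptor RP105, read 0.118, 0.0675, 0 and 0.143 against 0.698, 0.342, 0.699 and 0.401 CPM (2.79 ± 0.44). Ctss, the gene of the lysosomal protease cathepsin S that cleaves the invariant chain, read 0.197, 0.169, 0.160 and 0.0953 against 1.43, 1.20, 1.23 and 1.53 CPM (3.08 ± 0.28). Ly86 and Ctss rested on at most 10 counts in any wild-type library. Cd68, a lysosomal glycoprotein, rose by 0.99 ± 0.08.

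Adgre1, Lgals3 and Itgax were lower. Adgre1, the gene of F4/80, read 22.7, 21.7, 18.7 and 20.5 CPM in wild-type and 5.91, 6.26, 5.96 and 5.93 CPM in mutant libraries (log2 -1.80 ± 0.06, edgeR adjusted p = 3.3e-23). Lgals3, the gene of galectin-3, read 1.87, 1.85, 1.81 and 2.02 against 0.276, 0.107, 0.0166 and 0.112 CPM (-3.84 ± 0.31). It had the greatest fold change of the tested members, and its mutant libraries held 1 to 17 counts. Itgax, the gene of CD11c, differed by -0.91 ± 0.17. Emb, the adhesion protein embigin, differed by -0.09 ± 0.03, a call that ended without wild-type library 1 (-0.07) or mutant library 2 or 4 (-0.09 and -0.07), and without wild-type libraries 1 and 4 together (-0.03). It also ended with RLE size factors, DESeq2, no filter on low counts or only these 2 groups in the fit (-0.07 to -0.09). The transcription factor gene Tcf4, required for plasmacytoid dendritic cells, was higher by 0.52 ± 0.04 (38.2 ± 1.77 and 54.8 ± 2.13 CPM), while Id2 (-0.22 ± 0.13) and Zbtb46 (-0.01 ± 0.12), genes of conventional dendritic cells, did not pass.

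The same comparison was then made at each treatment, on libraries not used with vehicle. With IFNg 10 members were higher and 12 lower, beside 25.7% and 27.4% of all tested genes. With Pam3CSK4 the counts were 12 and 11, beside 32.1% and 33.5%. With both agonists they were 12 and 10, beside 30.5% and 29.7%. At all 4 treatments Csf1r, F13a1, Ly86, Mpeg1, Ms4a6c, Cd68, Ctss, Tcf4, Tyrobp and Fcer1g were called higher. At all 4 treatments Adgre1, Clec12a, Csf2rb, Fcgr1, Fcgr2b, Fcgr3, Fcgr4, Itgax and Lgals3 were called lower. Of these, Fcgr3 kept almost the same log2 difference (-2.29, -2.26, -2.26 and -2.20 in the order vehicle, IFNg, Pam3CSK4, both), as did F13a1 (2.43, 2.39, 2.61 and 2.53). Mpeg1 moved from 2.77 with vehicle to 1.47 with IFNg and 1.1 with both agonists, and Fcgr4 from -2.81 to -0.59 and -0.90. With IFNg the calls of Fcgr1 (-0.26), Fcgr4 (-0.59) and Csf2ra (-0.39) ended when single libraries were left out. These were wild-type library 1 or 4 or mutant library 2 or 3 for Fcgr1 (-0.24, -0.22, -0.21 and -0.24). For Fcgr4 they were wild-type library 1 or 3 or mutant library 1, 3 or 4 (-0.53, -0.51, -0.50, -0.56 and -0.60). For Csf2ra they were wild-type library 1, 2 or 4 or mutant library 1, 2 or 3 (-0.36, -0.38, -0.38, -0.39, -0.34 and -0.36). In the share-adjusted fit Fcgr1 did not pass with IFNg (-0.16) or with Pam3CSK4 (-0.13, against -0.37 without adjustment), nor did Fcgr4 with IFNg (-0.62).

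**Figure D2:**
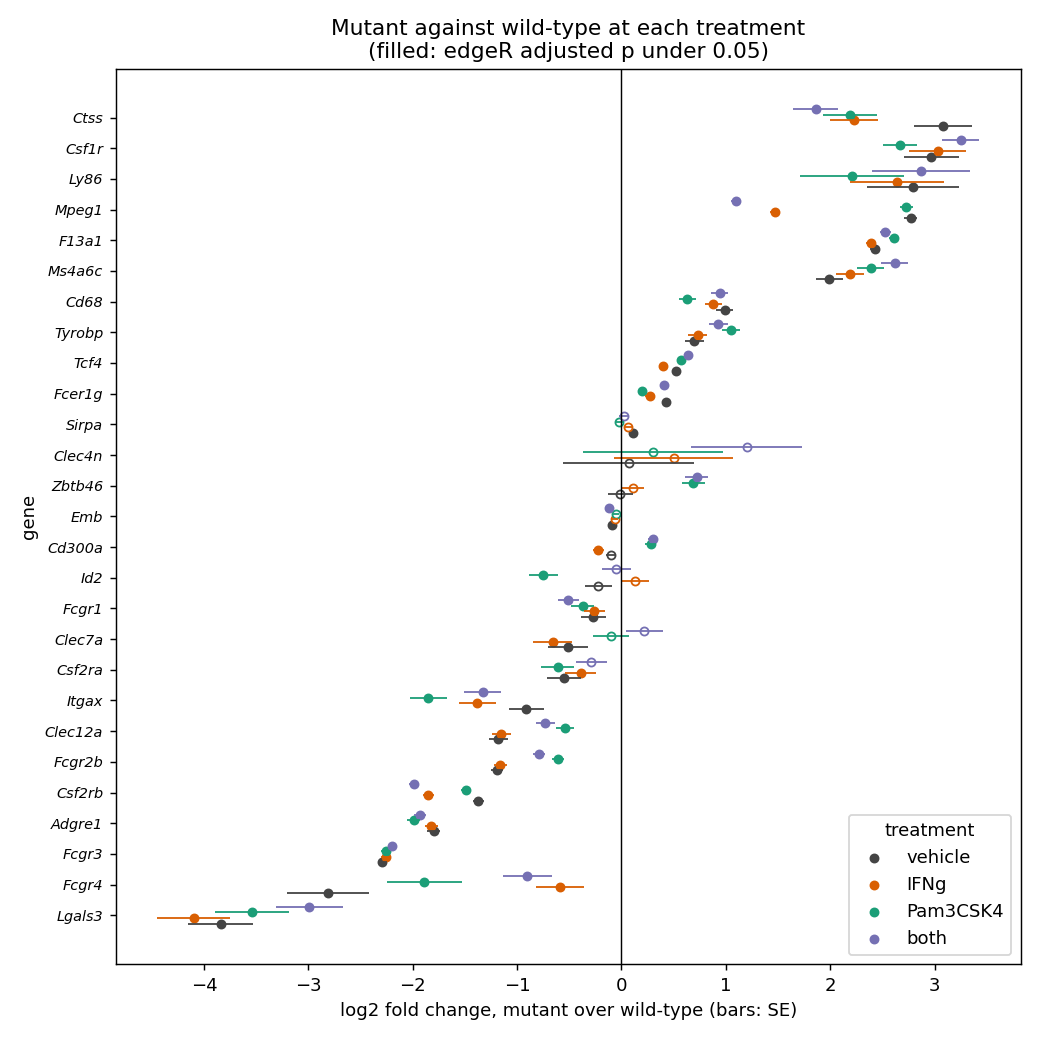
Log2 fold change of mutant over wild-type (x axis) for the 27 tested members (rows) at the 4 treatments (colours); bars are SE from the edgeR model and filled points passed at an adjusted p under 0.05. Fcgr3 and F13a1 keep their position across treatments, while Mpeg1 and Fcgr4 move toward 0 with IFNg and with both agonists.

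The next question was how the members answered IFNg. In both lines IFNg raised Csf2rb, the Fc receptor genes Fcgr1 and Fcgr4 and the perforin-2 gene Mpeg1, and it lowered Cd300a and Sirpa slightly. In wild-type cells 7 members rose and 5 fell, beside 17.8% and 17.6% of all tested genes, and in mutant cells 7 rose and 9 fell, beside 18.3% and 14.9%. The median log2 fold change of the members was -0.04 in wild-type and -0.01 in mutant cells, beside -0.01 and -0.01 for all genes. Most members moved little: 5 wild-type and 4 mutant calls reached 2-fold, as did 3.17% and 3.09% of all genes. The responses to IFNg, Pam3CSK4 and both agonists within a line share their vehicle libraries.

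Csf2rb read 289.9, 263.5, 276.9 and 274.8 CPM in wild-type cells with IFNg, against 86.8 to 105.1 CPM with vehicle (log2 1.52 ± 0.05, edgeR adjusted p = 8.5e-25). In mutant cells it read 73.5, 74.8, 77.9 and 79.7 CPM with IFNg against 35.2 to 39.0 CPM with vehicle (1.03 ± 0.05). No IFNg library overlapped the vehicle libraries of its line, and the mutant level with IFNg stayed below the wild-type vehicle level. The mutant response was smaller by -0.49 ± 0.06 (edgeR adjusted p = 5.4e-06). In this test of the difference between responses 3 members passed, Csf2rb, Mpeg1 and Fcgr4, as did 1.65% of all genes.

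Mpeg1 read 21.3, 21.2, 21.7 and 23.0 CPM in wild-type cells with IFNg against 3.41 to 4.19 CPM with vehicle (log2 2.55 ± 0.06, edgeR adjusted p = 2e-28). In mutant cells it read 58.5, 59.4, 60.0 and 64.5 against 23.8 to 27.1 CPM (1.25 ± 0.05). The fold response was smaller in mutant cells (difference -1.30 ± 0.08, edgeR adjusted p = 1.3e-14), although the final level was higher. Wild-type cells with IFNg came close to the level of untreated mutant cells, 21.8 ± 0.846 against 25.5 ± 1.47 CPM.

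Fcgr4 went in the opposite direction. It read 1.1, 0.844, 1.13 and 0.850 CPM in wild-type cells with IFNg (log2 1.26 ± 0.25 over vehicle) and 0.526, 0.820, 0.613 and 0.661 CPM in mutant cells (3.48 ± 0.36). The fold response was larger in mutant cells by 2.22 ± 0.47 (edgeR adjusted p = 0.006), from a vehicle level of only 13 counts over 4 libraries. Fcgr1 read 5.99, 5.48, 5.43 and 6.23 CPM in wild-type cells with IFNg, against 2.33, 2.46, 1.84 and 2.24 CPM with vehicle (1.38 ± 0.11, edgeR adjusted p = 7.6e-13). In mutant cells it read 5.07, 4.39, 4.67 and 5.23 against 1.96, 2.05, 1.76 and 1.57 CPM (1.4 ± 0.11). Its response differed between the lines by 0.02 ± 0.15, with a 95% interval of -0.29 to 0.33.

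Ctss read 0.276, 0.211, 0.427 and 0.558 CPM in wild-type cells with IFNg (log2 1.26 ± 0.33, edgeR adjusted p = 0.0028), above each of its vehicle libraries. In the share-adjusted fit the value was 0.90 and did not pass (edgeR adjusted p = 0.07). In mutant cells Ctss read 1.46, 1.62, 1.98 and 2.10 CPM, and its change of 0.41 ± 0.20 did not pass.

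The 4 genes with 2-fold IFNg calls and a RefSeq promoter entry are shown by the 250 bases before their start site (assembly GRCm38.p6, 5′ to 3′ on the gene's strand), since these are the members the IFNg comparison turns on. RefSeq promoter entries matched 24 of the 32 members, and Csf2rb was not among them. Both strands were searched for TTCNNNGAA (the gamma-activated site), the core of the interferon-stimulated response element (a repeat of GAAA with any 2 bases between), GAGGAAGT (a PU.1 site) and the GATA site of letters AGATAA. Capitals mark the matches, and no 2 of them overlapped.
Fcgr1, chr3:96293970-96294219, - strand: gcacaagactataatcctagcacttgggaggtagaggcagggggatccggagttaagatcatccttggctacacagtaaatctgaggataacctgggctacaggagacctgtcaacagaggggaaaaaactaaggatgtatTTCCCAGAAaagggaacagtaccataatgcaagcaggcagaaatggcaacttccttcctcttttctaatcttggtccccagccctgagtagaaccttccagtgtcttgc
Fcgr4, chr1:171018676-171018925, + strand: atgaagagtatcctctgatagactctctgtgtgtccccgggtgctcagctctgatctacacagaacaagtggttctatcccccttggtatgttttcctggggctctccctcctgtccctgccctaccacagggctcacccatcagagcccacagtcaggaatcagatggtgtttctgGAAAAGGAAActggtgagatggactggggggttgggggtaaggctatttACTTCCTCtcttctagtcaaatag
Ctss, chr3:95526536-95526785, + strand: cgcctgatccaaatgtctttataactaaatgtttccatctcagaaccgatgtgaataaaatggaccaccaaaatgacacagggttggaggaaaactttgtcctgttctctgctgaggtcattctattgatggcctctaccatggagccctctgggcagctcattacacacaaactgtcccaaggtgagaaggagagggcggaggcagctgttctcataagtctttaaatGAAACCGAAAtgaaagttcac
Mpeg1, chr19:12460520-12460769, + strand: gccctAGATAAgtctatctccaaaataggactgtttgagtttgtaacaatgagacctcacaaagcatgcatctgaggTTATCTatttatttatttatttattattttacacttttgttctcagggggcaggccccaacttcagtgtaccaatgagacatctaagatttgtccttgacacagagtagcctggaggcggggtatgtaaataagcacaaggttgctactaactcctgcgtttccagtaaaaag
Fcgr1 holds TTCCCAGAA starting 109 bases before the start site. Fcgr4 holds GAAAAGGAAA starting 73 bases before it and the PU.1 letters on the other strand, ACTTCCTC, starting 24 bases before it. Ctss holds GAAACCGAAA starting 21 bases before the start site, and Mpeg1 holds the GATA letters and their reverse complement starting 245 and 173 bases before it. Of all 32851 promoters of this length, 7.02% hold the gamma-activated letters, 2.98% the interferon response letters, 2.44% the PU.1 letters and 9.99% the GATA letters. Among the 24 members searched the counts were 3 (Fcgr1, Batf3 and Siglech), 2 (Fcgr4 and Ctss), 1 (Fcgr4) and 2 (Mpeg1 and Itgax). A match describes the letters and is no evidence of binding.

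**Figure D3:**
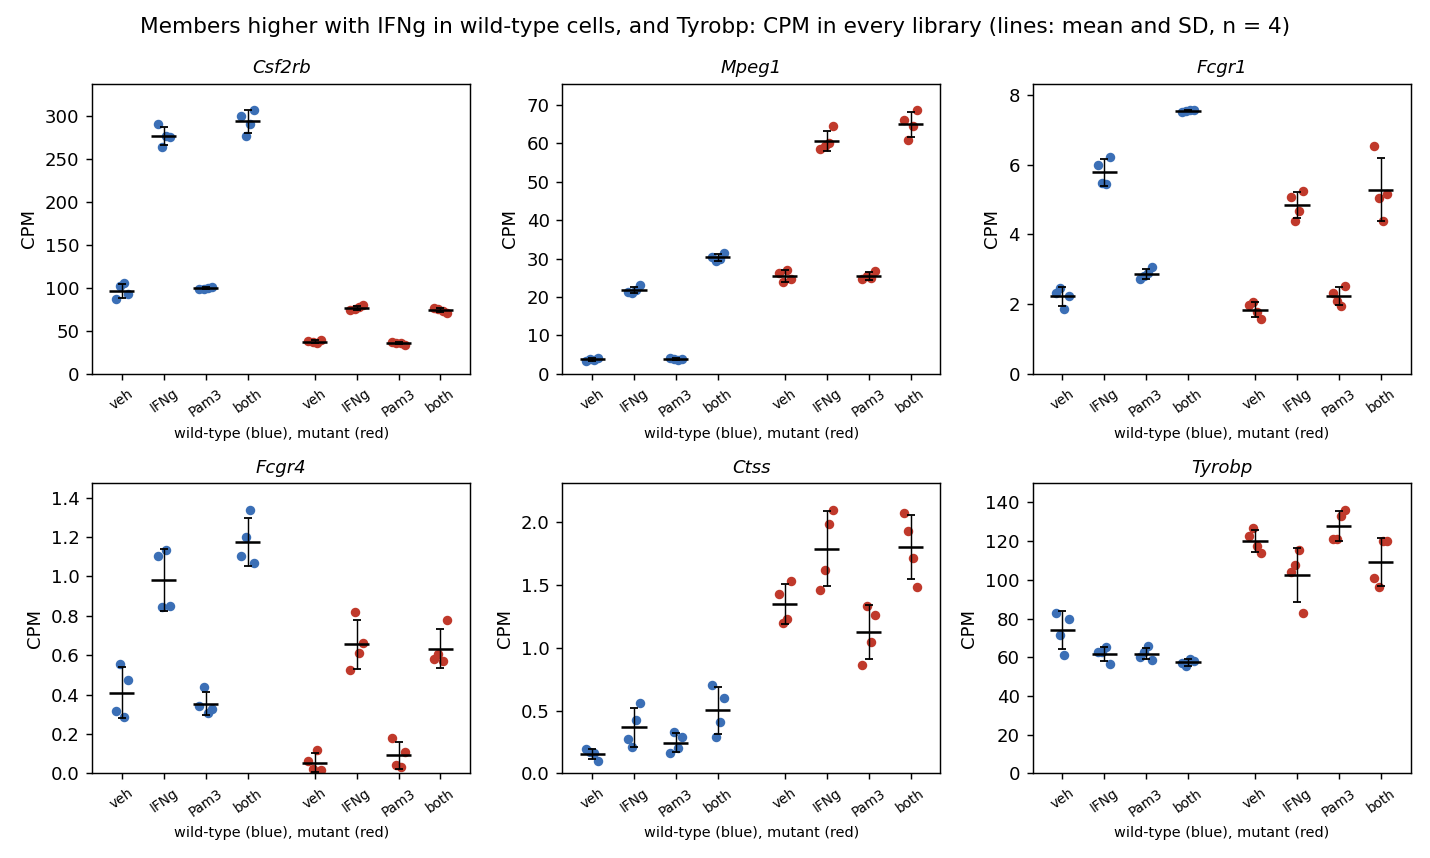
CPM (y axis, from 0) of 6 members in every library, with vehicle, IFNg, Pam3CSK4 and both agonists in wild-type (blue) and mutant (red) cells; points are libraries, horizontal lines the mean and vertical bars the SD of 4 libraries. Csf2rb, Mpeg1, Fcgr1 and Fcgr4 are higher in each IFNg library than in the vehicle libraries of the same line, and Tyrobp differs mainly between the lines.

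The falls with IFNg were small. Cd300a fell by 0.27 ± 0.05 on the log2 scale in wild-type and by 0.39 ± 0.05 in mutant cells (edgeR adjusted p = 2.2e-05 and 2.3e-08), and Sirpa fell by 0.17 ± 0.04 and 0.22 ± 0.04. Both are inhibitory receptors, and both held in each alternative tried. In mutant cells Fcer1g fell by 0.18 ± 0.04 and Emb rose by 0.13 ± 0.03. In wild-type cells Clec12a (-0.31 ± 0.09) and Fcgr3 (-0.15 ± 0.04) were called lower, and both calls ended in the share-adjusted fit (-0.09 and -0.11) and without vehicle libraries 1 and 4 together (-0.18 and -0.09).

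The remaining IFNg calls each ended in at least 1 alternative. In wild-type cells Tyrobp (-0.26) lost its call without IFNg library 4 or vehicle library 1 or 4 (-0.22, -0.19 and -0.22). Its call also ended without vehicle libraries 1 and 4 together (-0.10), and it read 0.03 in the share-adjusted fit. Tcf4 (0.13) lost its call without vehicle library 1 (0.10), without vehicle libraries 1 and 4 together (0.08) and in the share-adjusted fit (0.05). Emb (0.10) lost it without IFNg library 2, 3 or 4 or vehicle library 3 or 4 (0.08, 0.09, 0.10, 0.07 and 0.10) and in the share-adjusted fit (0.09). These 3 changes were at most 1.19-fold. In mutant cells Zbtb46 (0.36) lost its call without vehicle library 1 (0.29), and Ms4a6c (0.38) without IFNg library 3 (0.29). Itgax (-0.53) lost it without IFNg library 3 or 4 or vehicle library 4 (-0.44, -0.51 and -0.43). Clec12a (-0.28) lost it without IFNg library 4 or vehicle library 1 (-0.20 and -0.22), and Fcgr3 (-0.12) without IFNg library 1 or vehicle library 2 (-0.11 and -0.09). Tyrobp (-0.23) lost it without IFNg library 1 or 4 or vehicle library 1, 2 or 3 (-0.24, -0.14, -0.22, -0.20 and -0.24). Cd68 (-0.20) lost it without any of 7 of the 8 libraries compared, IFNg library 3 being the exception, at -0.14 to -0.21. The mutant calls of F13a1 (-0.16), Tyrobp, Clec12a, Fcgr3 and Cd68 ended in the share-adjusted fit, at -0.12, -0.07, -0.16, -0.10 and -0.22.

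Pam3CSK4 raised Csf1r strongly in both lines. In wild-type cells little else in the set changed, and in mutant cells Fcgr2b, Cd300a, Zbtb46 and Clec7a also rose. In wild-type cells 4 members rose and 4 fell, beside 10.4% and 11.7% of all tested genes, and in mutant cells 7 rose and 5 fell, beside 11.5% and 12.8%. The median log2 fold change of the members was 0.04 and 0.00, beside 0.00 and 0.00 for all genes.

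Csf1r read 1.68, 1.19, 1.71 and 1.42 CPM in wild-type cells with Pam3CSK4, against 0.0197 to 0.270 CPM with vehicle (log2 3.15 ± 0.25, edgeR adjusted p = 1.4e-11). In mutant cells it read 9.65, 8.54, 9.85 and 10.2 CPM, against 1.07 to 1.56 CPM with vehicle (2.85 ± 0.16, edgeR adjusted p = 4.1e-16). All 4 treated libraries of each line lay above all of its vehicle libraries, and treated wild-type cells reached 1.5 ± 0.244 CPM, near the 1.32 ± 0.206 CPM of untreated mutant cells. The responses differed by -0.30 ± 0.32, with a 95% interval of -0.96 to 0.35, so a difference between the lines was not detectable at this depth. The wild-type Csf1r call held in every alternative tried.

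The other 7 wild-type calls ended in the share-adjusted fit and without vehicle libraries 1 and 4 together, and either setting left 1 member called. Fcgr1 went from 2.22 ± 0.266 to 2.86 ± 0.147 CPM (log2 0.37 ± 0.11), and its call also ended without vehicle library 3 (0.29). Lgals3 changed by -0.74 ± 0.23 and lost its call without Pam3CSK4 library 1 or 4 or vehicle library 4 (-0.65, -0.63 and -0.71). Clec7a (0.49) lost its call without Pam3CSK4 library 1, 3 or 4 or vehicle library 1, 3 or 4 (0.44 to 0.51). Tyrobp (-0.25) lost it without Pam3CSK4 library 1, 2 or 4 or vehicle library 1 or 4 (-0.19 to -0.26). F13a1 (-0.16) lost it without Pam3CSK4 library 4 or vehicle library 1 or 2 (-0.14, -0.13 and -0.13). Clec12a (-0.35) and Tcf4 (0.14) read -0.10 and 0.05 in the share-adjusted fit, where Tyrobp read 0.07, F13a1 -0.09, Fcgr1 0.20, Clec7a 0.34 and Lgals3 -0.60.

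In mutant cells Fcgr2b read 30.8, 32.3, 34.4 and 36.5 CPM with Pam3CSK4, against 20.3 to 23.9 CPM with vehicle (log2 0.64 ± 0.06, edgeR adjusted p = 4.4e-11). In wild-type cells its change was 0.06 ± 0.05, and the difference between the responses was 0.58 ± 0.08 (edgeR adjusted p = 1.6e-06). Cd300a read 31.3, 30.7, 31.8 and 30.9 CPM in mutant cells, all above the 21.8 to 23.5 CPM of vehicle (0.47 ± 0.05), and differed from the wild-type response by 0.37 ± 0.07. Zbtb46, a transcription factor gene of conventional dendritic cells, read 2.36, 3.25, 3.12 and 2.39 CPM in mutant cells against 1.43 to 1.91 CPM (0.71 ± 0.12) and differed by 0.70 ± 0.17. These 3 differences held in each alternative tried. Clec7a rose by 0.90 ± 0.19 in mutant cells, but its responses in the 2 lines differed by 0.40 ± 0.26 (95% interval -0.13 to 0.93).

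Tcf4 rose by 0.20 ± 0.04 in mutant cells. Id2, an inhibitor of E proteins, read 0.747, 1.05, 1.03 and 0.886 CPM in mutant cells with Pam3CSK4, below the 1.38 to 1.91 CPM of vehicle (log2 -0.79 ± 0.14, edgeR adjusted p = 4.6e-05). Adgre1 fell by 0.25 ± 0.07 and Fcer1g fell by 0.17 ± 0.04. Ly86 read 0.292, 0.316, 0.279 and 0.177 CPM against 0.698, 0.342, 0.699 and 0.401 CPM with vehicle (-1 ± 0.36, edgeR adjusted p = 0.039). That call ended without any 1 of the 4 Pam3CSK4 libraries or vehicle library 1 or 3 (-0.85 to -1.08). Itgax (-0.62) lost its call without vehicle library 4 (-0.52), and Clec12a (0.30) without Pam3CSK4 library 3 or vehicle library 4 (0.25 and 0.27).

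The response to Pam3CSK4 differed between the lines in 10 members (26.6% of all genes passed), 6 with a higher and 4 with a lower value in mutant cells. In the share-adjusted fit 3 members passed, Fcgr2b, Cd300a and Zbtb46, and without wild-type vehicle library 1 there were 6. Clec12a (0.64 ± 0.13), Itgax (-0.94 ± 0.25) and Fcer1g (-0.22 ± 0.05) passed in each fit with 1 library left out but not in the share-adjusted fit (0.35, -0.58 and -0.14). Cd68 (-0.36) lost its call without wild-type vehicle library 1 (-0.33). Id2 (-0.53) kept its call only without wild-type Pam3CSK4 library 4, wild-type vehicle library 2 or 4, mutant Pam3CSK4 library 2 or 3 or mutant vehicle library 2 or 4, and read -0.43 to -0.54 in the other 9 fits. Tyrobp (0.34) kept it only without wild-type Pam3CSK4 library 3, wild-type vehicle library 2 or 3, mutant Pam3CSK4 library 1 or 2 or mutant vehicle library 2, and read 0.28 to 0.35 in the other 10. F13a1 (0.18) kept it only without wild-type Pam3CSK4 library 1 or 3, wild-type vehicle library 3, mutant Pam3CSK4 library 1 or mutant vehicle library 1 or 3, and read 0.15 to 0.18 in the other 10. These 3 differences were thus not stable against leaving out a library. Cd68, Id2, Tyrobp and F13a1 read -0.32, -0.64, -0.04 and 0.09 in the share-adjusted fit. Without wild-type vehicle libraries 1 and 4 together Id2, Tyrobp and F13a1 read -0.59, 0.18 and 0.13 and did not pass.

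**Figure D4:**
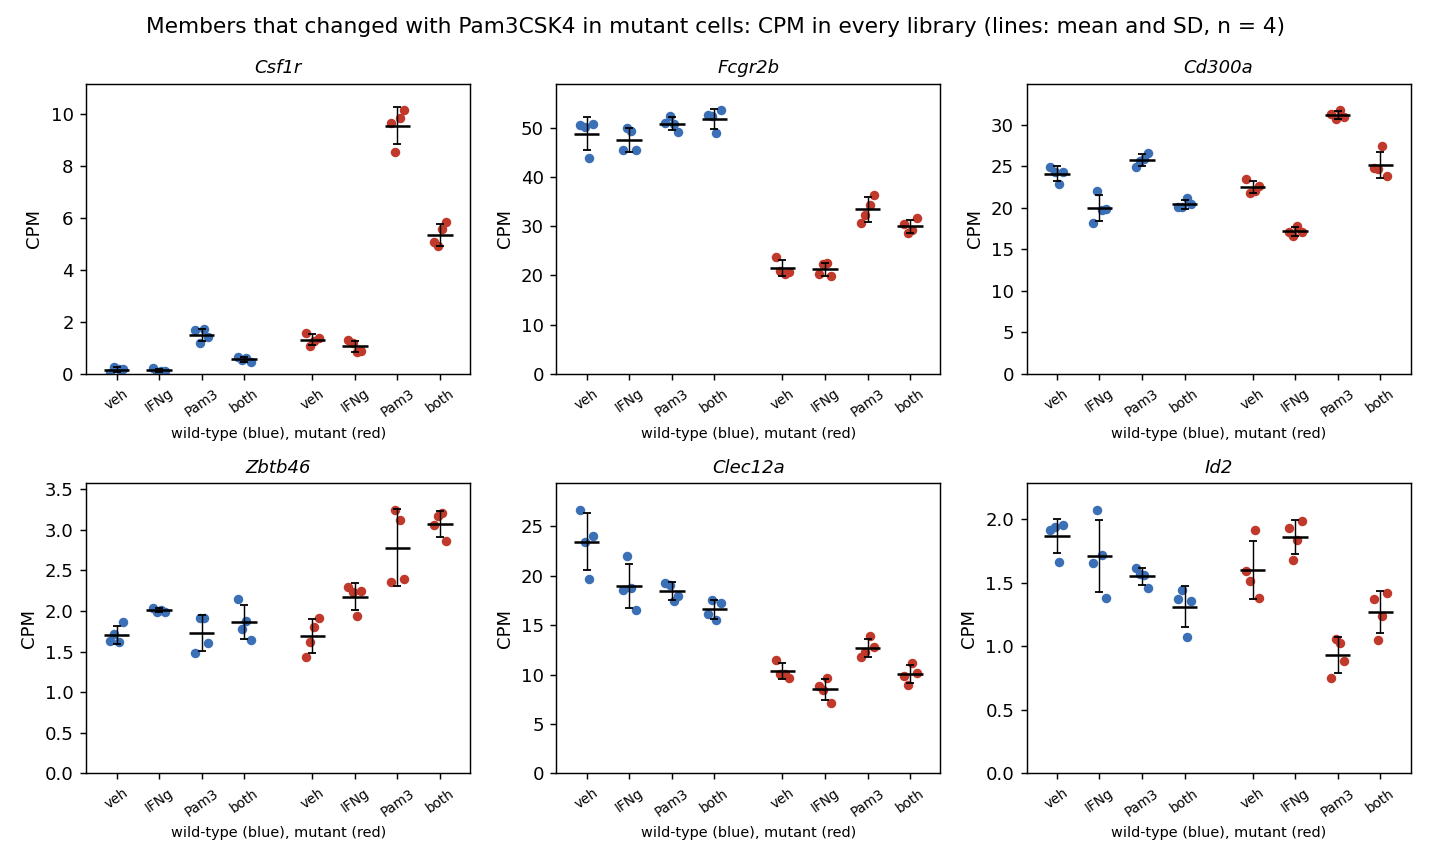
CPM (y axis, from 0) of 6 members in every library by treatment, in wild-type (blue) and mutant (red) cells; points are libraries, horizontal lines the mean and vertical bars the SD of 4 libraries. Csf1r rises with Pam3CSK4 in both lines, while Fcgr2b, Cd300a and Zbtb46 rise in the mutant libraries and stay near their vehicle level in the wild-type ones.

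The last comparison set both agonists against vehicle and against each agonist alone. The IFNg responses of Csf2rb, Fcgr1, Fcgr4 and Mpeg1 were present, and the Csf1r response to Pam3CSK4 was smaller. In wild-type cells 7 members rose and 9 fell against vehicle, beside 21.2% and 22.4% of all tested genes, and in mutant cells 12 rose and 5 fell, beside 23.7% and 20.1%. The median log2 fold change of the members was 0.03 and 0.16, beside -0.03 and -0.01 for all genes. In the share-adjusted fit 8 members passed in wild-type cells in place of 16.

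Csf1r read 0.654, 0.531, 0.596 and 0.446 CPM in wild-type cells with both agonists and 5.09, 4.91, 5.57 and 5.85 CPM in mutant cells. Against vehicle it rose by log2 1.73 ± 0.29 and 2.01 ± 0.16 (edgeR adjusted p = 8.7e-06 and 1.4e-12). Set against Pam3CSK4 alone it was lower by -1.42 ± 0.20 in wild-type and -0.84 ± 0.14 in mutant cells (edgeR adjusted p = 5.9e-07 and 2e-05), and no library with both agonists reached a library with Pam3CSK4 alone. That comparison was chosen after these values were seen. With IFNg alone the Csf1r values were -0.40 ± 0.38 and -0.34 ± 0.19, and neither passed. Relative to Pam3CSK4 alone 6 members were higher and 6 lower in wild-type cells (30.1% of all genes passed), and 8 and 6 in mutant cells (28.9%).

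Mpeg1 read 30.4, 29.4, 29.9 and 31.5 CPM in wild-type and 66.0, 60.8, 64.5 and 68.7 CPM in mutant cells with both agonists. In wild-type cells this was above IFNg alone (log2 0.47 ± 0.05, edgeR adjusted p = 4.6e-09), with no overlap. Against vehicle the change was 3.02 ± 0.06 in wild-type and 1.35 ± 0.05 in mutant cells, a difference of -1.67 ± 0.07 (edgeR adjusted p = 2.7e-18). Csf2rb read 299.6, 276.5, 290.9 and 306.7 CPM in wild-type and 76.5, 75.4, 73.0 and 71.2 CPM in mutant cells (1.60 ± 0.05 and 0.98 ± 0.05 over vehicle, difference -0.62 ± 0.06). The smaller mutant fold response of both genes was thus present with and without Pam3CSK4, in comparisons that share the vehicle libraries. For Mpeg1 this holds for the fold only, since its level in CPM was higher in mutant cells at each treatment.

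Fcgr1 read 7.52, 7.54, 7.56 and 7.56 CPM in wild-type cells and 6.53, 5.04, 4.37 and 5.17 CPM in mutant cells with both agonists (log2 1.77 ± 0.11 and 1.53 ± 0.11). The value above IFNg alone in wild-type cells (0.38 ± 0.10) lost its call without IFNg library 3 (0.35). Fcgr4 read 1.1, 1.2, 1.34 and 1.07 CPM and 0.582, 0.607, 0.570 and 0.777 CPM (1.53 ± 0.25 and 3.43 ± 0.36, difference 1.90 ± 0.47). Ctss read 0.705, 0.291, 0.407 and 0.601 CPM and 2.07, 1.93, 1.71 and 1.49 CPM. Its rise passed in wild-type cells (1.64 ± 0.32) and not in mutant cells (0.42 ± 0.20). The difference of -1.22 ± 0.38 passed, but its call ended without wild-type library 1 or 4 with both agonists or vehicle library 4 (-1, -1.12 and -1.08) and in the share-adjusted fit (-0.90).

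In mutant cells the Pam3CSK4 responses of Fcgr2b, Zbtb46 and Clec7a remained with both agonists. Fcgr2b stood at 30.0 ± 1.35 CPM (log2 0.48 ± 0.06 over vehicle), Zbtb46 at 3.07 ± 0.158 CPM (0.86 ± 0.11) and Clec7a at 1.07 ± 0.161 CPM (0.84 ± 0.18). Cd300a fell with IFNg and rose with Pam3CSK4 in mutant cells, and with both it stood at 25.1 ± 1.58 CPM, between the 2 (0.16 ± 0.05 over vehicle). Ms4a6c read 7.03, 5.90, 8.02 and 6.90 CPM, above each vehicle library (0.68 ± 0.11). Against IFNg alone 7 members were higher and 1 lower in mutant cells (17.1% of all genes passed), and 3 passed in wild-type cells, all higher (6.81%). The lower one was Id2, at -0.56 ± 0.13.

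Responses to both agonists differed between the lines in 9 members (15.8% of all genes passed), 6 with a higher and 3 with a lower value in mutant cells. Besides Csf2rb, Mpeg1, Fcgr4 and Ctss these were Fcgr2b (0.40 ± 0.08), Zbtb46 (0.73 ± 0.16), Cd300a (0.40 ± 0.07), Clec12a (0.45 ± 0.13) and Ms4a6c (0.63 ± 0.19). The Clec12a call ended in the share-adjusted fit (0.25), and the Ms4a6c call with it (0.36) and without wild-type vehicle library 4 (0.56). Without wild-type vehicle libraries 1 and 4 together the calls of Ctss (-1.2), Clec12a (0.29) and Ms4a6c (0.50) ended as well. Smaller falls in wild-type cells were called for Tyrobp, Clec12a, Cd300a, Sirpa, Id2, Lgals3, F13a1, Fcgr3 and Adgre1, with log2 fold changes from -0.15 to -0.81. Those of Cd300a (-0.24) and Sirpa (-0.16) held in each alternative tried, and the other 7 ended in the share-adjusted fit. There Lgals3 went from -0.81 to -0.65, Id2 from -0.51 to -0.40, Clec12a from -0.50 to -0.22, Tyrobp from -0.36 to 0.0, F13a1 from -0.20 to -0.12, Fcgr3 from -0.19 to -0.14 and Adgre1 from -0.15 to -0.11. The Adgre1 call (-0.15) also ended without library 1, 2 or 4 with both agonists or vehicle library 1 or 2 (-0.11 to -0.15). Without vehicle libraries 1 and 4 together the wild-type calls of Adgre1 and Tyrobp ended too (-0.08 and -0.18). In mutant cells the calls of Fcgr3 (-0.10), Id2 (-0.34), Itgax (-0.58) and Emb (0.09) each ended with at least 1 library left out. For Fcgr3 these were library 2 or 4 with both agonists or vehicle library 1 or 2 (-0.08 to -0.11). For Id2 they were library 2 or 3 with both agonists or vehicle library 1 or 3 (-0.24 to -0.35), and both calls also ended in the share-adjusted fit (-0.09 for Fcgr3 and -0.31 for Id2). For Itgax it was vehicle library 4 (-0.47). For Emb they were library 1, 2 or 3 with both agonists or vehicle library 1, 2 or 4 (0.05 to 0.09), and in wild-type cells library 2 with both agonists or vehicle library 3 (0.09 and 0.08, against 0.11) or the share-adjusted fit (0.10).

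**Figure D5:**
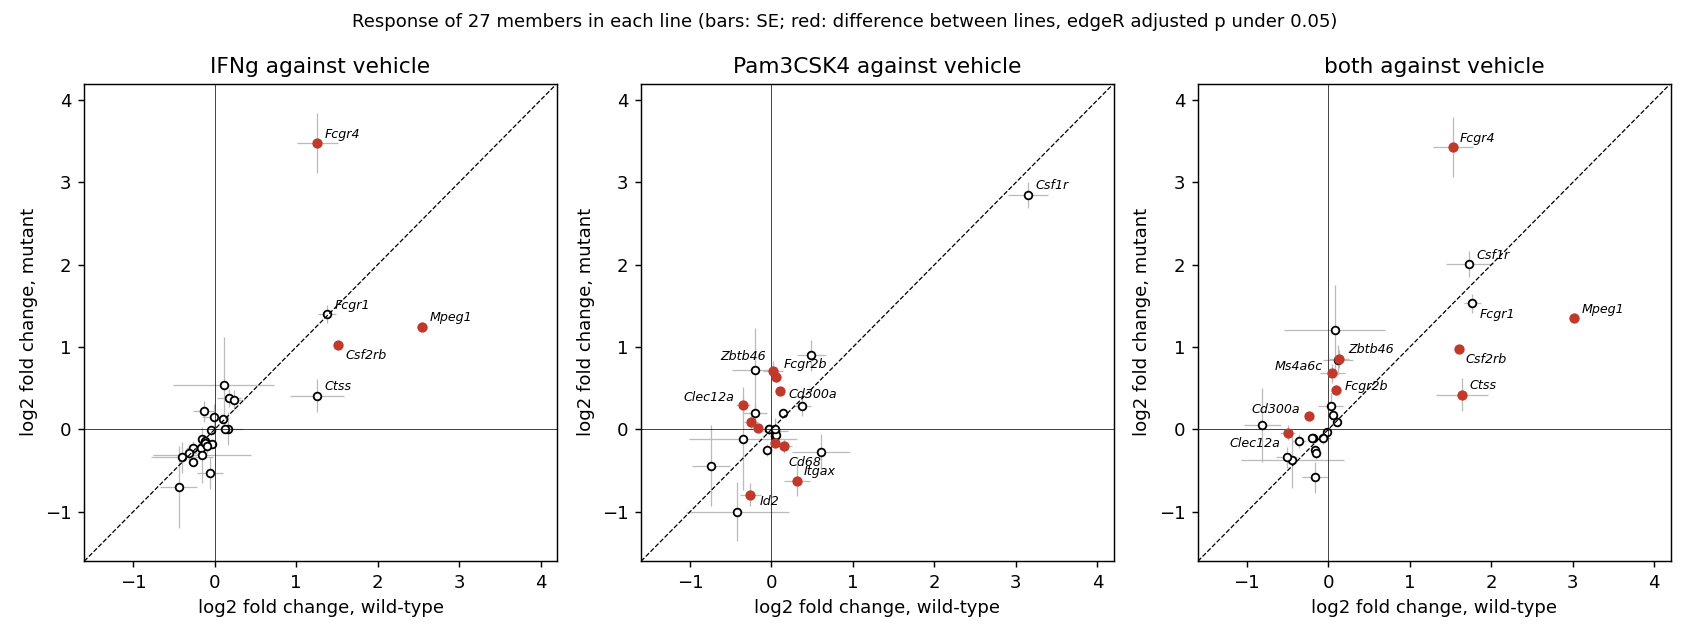
Log2 fold change against vehicle of the 27 tested members in wild-type (x axis) and mutant cells (y axis) for IFNg, Pam3CSK4 and both agonists; bars are SE, red points mark members whose response differed between the lines at an edgeR adjusted p under 0.05, and the dashed line marks equal responses. Mpeg1 and Csf2rb lie below the line and Fcgr4 above it with IFNg and with both agonists, while Csf1r lies near it in the Pam3CSK4 panel.

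Genes that work with the members were followed in 4 lists, whose counts with vehicle stand beside 24.4% higher and 29.3% lower of all tested genes. Of 20 ITAM signalling partners, 13 had higher and 4 lower levels in mutant cells given vehicle (median log2 fold change 0.16). The SRC-family kinase gene Fgr was among the lower ones, at 1.96 CPM in wild-type and 0.791 CPM in mutant cells (-1.30 ± 0.15, edgeR adjusted p = 4.6e-09). Lcp2, the gene of the adaptor SLP-76, rose with both agonists by 0.74 ± 0.08 in wild-type and 1.5 ± 0.08 in mutant cells, a difference of 0.76 ± 0.12 (edgeR adjusted p = 1.6e-05).

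Of 31 partner and paralogous receptors and ligands, 25 were tested, of which 5 had higher and 15 lower vehicle levels in mutant cells (median -0.42). Csf2rb2, the interleukin 3-specific paralog of Csf2rb, was lower by -2.85 ± 0.17, and rose with IFNg by 1.65 ± 0.13 in wild-type and 1.77 ± 0.18 in mutant cells. Csf1, the ligand of the receptor encoded by Csf1r, rose with IFNg from 6.33 to 18 CPM in wild-type and from 2.33 to 13 CPM in mutant cells (1.5 ± 0.09 and 2.48 ± 0.10, difference 0.99 ± 0.13). The receptor gene itself answered Pam3CSK4. Clec4e, the gene of the lectin Mincle that pairs with the Fcer1g product, rose with Pam3CSK4 from 223 to 329 CPM in wild-type and from 165 to 454 CPM in mutant cells (0.56 ± 0.08 and 1.46 ± 0.08, difference 0.90 ± 0.11, edgeR adjusted p = 2e-06). Clec5a, the gene of a lectin that pairs with the Tyrobp product, rose by 1.19 ± 0.10 in mutant cells, a difference of 0.98 ± 0.14 from wild-type.

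Of 27 monocyte and dendritic transcription factors, 26 were tested, of which 11 had higher and 7 lower vehicle levels in mutant cells (median 0.24). In mutant against wild-type cells with both agonists 20 were higher and 5 lower (median 0.73), beside 30.5% and 29.7% of all tested genes. Irf8, required for monocytes and dendritic cells, rose with IFNg from 7.34 to 121 CPM in wild-type and from 17.8 to 192 CPM in mutant cells (4.05 ± 0.05 and 3.43 ± 0.05). Its fold response was smaller in mutant cells by -0.62 ± 0.07 (edgeR adjusted p = 2.7e-07) from a higher start, as for Mpeg1. Relb, an NF-kB gene needed by dendritic cells, rose with Pam3CSK4 by 3.68 ± 0.12 and 3.71 ± 0.10. Cebpe, a factor of granulocyte maturation, was lower in mutant vehicle libraries (13.7 and 0.759 CPM, -4.18 ± 0.18), while Tfec, a factor of the MITF family in macrophages, was higher (1.24 and 16.4 CPM, 3.72 ± 0.16).

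Of 19 lysosomal protease and antigen processing genes, 15 were tested, of which 4 had higher and 7 lower vehicle levels in mutant cells (median -0.14). Lgmn, a lysosomal endopeptidase, went from 0.0579 to 5.08 CPM (log2 6.45 ± 0.23, edgeR adjusted p = 4.3e-23), beside the higher Ctss. Cd63 (-1.61 ± 0.04) and Ctsz (-1.15 ± 0.04) were lower. With IFNg 2 of the 15 rose and 6 fell in wild-type cells, among them Lyz2, the macrophage lysozyme (-0.78 ± 0.10), and 2 rose and 8 fell in mutant cells. Of all tested genes 17.8% rose and 17.6% fell in wild-type and 18.3% and 14.9% in mutant cells.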

How the data were processed

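Total RNA of 32 libraries was sequenced after rRNA reduction with a stranded kit, per the labels' protocols. The authors deposited 1 table of expected counts per gene, made with STAR 2.5.2b and RSEM 1.3.0 on mm10, per the submitters' processing notes. The annotation release is not given in the sources used here. RSEM divides reads shared by similar genes with a model, so 11.07% of nonzero values were not whole, and paralogs such as Csf2rb and Csf2rb2 are not fully separated. Gene symbols were matched to 55394 of 55487 identifiers by identifier without version.

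Expected counts were rounded to whole numbers. Genes too low for edgeR's filterByExpr over the 8 groups were removed (40618 of 55487), which left 14869. Libraries were scaled by TMM, and 1 robust quasi-likelihood model over all 8 groups gave each contrast, with p-values adjusted by Benjamini-Hochberg within a contrast over all tested genes (threshold 0.05, 24 residual degrees of freedom). CPM used the same scaling, and intervals are 95%. R 4.3.3, edgeR 4.0.16, limma 3.58.1, DESeq2 1.42.0, pandas 2.3.3 and scipy 1.17.1 were used. In simulated data for the vehicle genotype comparison over 14869 genes, 88% of 1.5-fold and 100% of 4-fold changes were recovered. At each fold only 100 genes were set to change, drawn from those with higher mean counts. In the real comparison 24.4% of genes were called higher and 29.3% lower, and recovery under so widespread a change was not tested. Recovery for members with few counts, such as Fcgr4, Ly86 and Clec4n, was not tested.

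Members and gene lists were chosen with earlier results of these data known. Each library was to be listed for the 12 members with the greatest vehicle difference and for members with a 2-fold call in a response or its difference, and up to 4 called genes of each context list with the greatest change in a contrast were named. The comparisons of both agonists with Pam3CSK4 alone were added after seeing the data. Replicate numbers did not pair libraries: of the 28 pairs that share a number, 0, 0, 2 and 3 had a correlation above 0.1 for numbers 1 to 4. Promoter letters came from RefSeq (GRCm38.p6).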

Additional observations from a re-analysis of the deposited data

Results flagged for a closer look

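In 4 groups a member's lowest or highest library lay apart from the other 3 by more than Dixon's limit for 4 samples. Fcgr2b stood at 43.8 CPM in wild-type vehicle library 3 against 50.3 to 50.9 CPM in the others, and Id2 at 1.67 against 1.91 to 1.95 CPM in that same library. Clec7a stood at 1.08 CPM in wild-type vehicle library 2 against 0.739 to 0.785 CPM, and Adgre1 at 6.26 CPM in mutant vehicle library 2 against 5.91 to 5.96 CPM. These were 4 of 216 groups tested, and chance alone flags about 1 in 20.

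The remaining results are responses that differed between the lines in edgeR's test of the difference, given as mutant minus wild-type log2 fold change. For IFNg they were Mpeg1 (-1.3), Csf2rb (-0.49) and Fcgr4 (2.22). For Pam3CSK4 they were Zbtb46 (0.7), Clec12a (0.64), Fcgr2b (0.58), Cd300a (0.37), Tyrobp (0.34) and F13a1 (0.18), and in the other direction Itgax (-0.94), Id2 (-0.53), Cd68 (-0.36) and Fcer1g (-0.22). For both agonists they were Fcgr4 (1.9), Zbtb46 (0.73), Ms4a6c (0.63), Clec12a (0.45), Fcgr2b (0.4) and Cd300a (0.4), and in the other direction Mpeg1 (-1.67), Ctss (-1.22) and Csf2rb (-0.62). The 3 sets share the vehicle libraries of both lines.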

How the results depend on the processing

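The counts of members passing were most dependent on the processing in the wild-type responses. In the share-adjusted fit 7 members passed for IFNg (12 in the main analysis), 1 for Pam3CSK4 (8), 8 for both agonists (16) and 3 for the difference of the Pam3CSK4 responses (10). For wild-type Pam3CSK4 the count was 3 with only the compared groups in the fit and 1 without wild-type vehicle libraries 1 and 4, and 4 to 7 leaving out 1 library. For the difference of the Pam3CSK4 responses it was 6 to 11 leaving out 1 library. Tyrobp changed sign in the share-adjusted fit, at 0.03 for IFNg, 0.07 for Pam3CSK4 and 0.0 for both agonists in wild-type cells and -0.04 for the difference of the Pam3CSK4 responses; the cause was not tested. Over all genes, wild-type Pam3CSK4 gave 3277 calls, but 1971 with only the compared groups, 176 in the share-adjusted fit and 724 without wild-type vehicle libraries 1 and 4, and the share of higher calls went from 47.0% to 89.2% share-adjusted and 68.8% without those libraries. The share-adjusted counts were 2795 in place of 5265 for wild-type IFNg, 3638 in place of 6491 for both agonists, 1213 in place of 3956 for the difference of the Pam3CSK4 responses and 1380 in place of 2347 for that of both. For mutant against wild-type they were 8238 in place of 7980 with vehicle and 7198 in place of 7893 with IFNg. With Pam3CSK4 they were 6757 in place of 9750, and with both agonists 7058 in place of 8951. The difference of the IFNg responses gave 245 calls, 400 in DESeq2 and 128 with only the compared groups. Without the 2 vehicle libraries 3956 became 2545, and the share of higher calls went from 50.2% to 39.6% for the difference of the IFNg responses and from 55.7% to 35.5% for that of both. With RLE size factors and DESeq2 no called result changed direction among 459 and 448 results on single members, and 9 and 10 moved across the threshold. Changes of sign among results not called were not counted. Among 459 results on single members a replicate block ended 7 calls and gained 1, and 8 of 32 libraries correlated best with a library of their own number. Members under about 1 CPM, such as Fcgr4, Ly86, Lgals3 and Ctss, rested on few counts, which limits the precision of their fold changes.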
